A study of Mus musculus with 12 samples.

Results

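Abat and Aldh5a1 encode the enzymes of the consecutive steps by which cells break down gamma-aminobutyric acid (GABA). They were described here in mouse myocardium on 12 expression arrays. The genes were found by their symbol in the platform annotation, which gave each of them 1 probe set, and they are 2 of the 19505 genes named in the table. Both passed the filter on dim genes, which kept 13653 genes for testing. Abat was chosen by its log2 signals on the DM and NC arrays, which were already known to differ, so that difference is given below as a description, without a test. Aldh5a1 was chosen as its partner in the pathway.

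The groups, each of 4 mice per the series design and 1 mouse per array, were labelled AngIV, DM and NC. AngIV mice were made diabetic with intraperitoneal streptozotocin, which kills pancreatic beta cells and so removes insulin, and then received a high dose of angiotensin IV, a peptide fragment of angiotensin II, infused at 2.88 mg/kg/day between weeks 8 and 24. DM mice received streptozotocin without the peptide, and NC mice received vehicle. Injections ran over 5 days in every group, and diabetic mice were kept when fasting glucose was at least 16.7 mM at 2 weeks. The labels give 6 months for all tissue and name no strain or sex. Streptozotocin diabetes is a model of insulin loss, and no group of AngIV infusion without diabetes was analysed here. The titles, source names and design give the same grouping, which was used. The disease state tag contradicts it, since it reads diabetes mellitus on NC samples and negative control on AngIV samples, and it was set aside.

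GABA is best known as the inhibitory transmitter of the brain, but it is also an intermediate of metabolism in other tissues. GABA transaminase, the product of Abat, is a mitochondrial enzyme that uses pyridoxal phosphate to move the amino group of GABA onto 2-oxoglutarate, which yields succinic semialdehyde and glutamate. Succinic semialdehyde dehydrogenase, the product of Aldh5a1, then oxidises the semialdehyde to succinate, which enters the citric acid cycle. This route around the oxoglutarate dehydrogenase step is called the GABA shunt. GABA transaminase also accepts beta-alanine and the valine intermediate 3-aminoisobutyrate, and it has been linked to the supply of nucleotides for mitochondrial DNA. In humans, loss of ABAT or of ALDH5A1 causes inherited disorders of GABA breakdown.

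The arrays were comparable in quality. Correlations between arrays over genes were 0.961 to 0.986 within groups and 0.962 to 0.984 between groups. Background was set on each array at the 95th percentile of its negative controls, which lay between 5.39 and 5.60 on the log2 scale. All 9 cardiomyocyte markers, among them Myh6 and Tnnt2, were above background on every array. Markers of the atria and of liver varied between arrays of 1 group, and their values are given beside the results. A principal component computed without Abat and Aldh5a1 held 24.1% of the variance. It placed the AngIV arrays between 8.45 and 16.8. The DM arrays were spread widely, at 16.9, 7.32, -4.17 and -11.4 for replicates 1 to 4, and the NC arrays lay between -18.1 and -13.1.

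Abat was lower in both diabetic groups than in the control hearts. Its log2 signal was 6.73, 5.74, 5.76 and 5.97 on the 4 AngIV arrays. It was 5.15, 5.16, 5.66 and 5.95 on the 4 DM arrays. It was 7.06, 7.46, 7.46 and 7.36 on the 4 NC arrays. Every diabetic heart, with or without angiotensin IV, lay below every control heart, while the AngIV and DM arrays overlapped. AngIV replicate 1 was the highest of the diabetic hearts. The means were 6.05 ± 0.47 in AngIV, 5.48 ± 0.39 in DM and 7.33 ± 0.19 in NC (log2 signal, SD, n = 4 each).

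**Figure D1:**
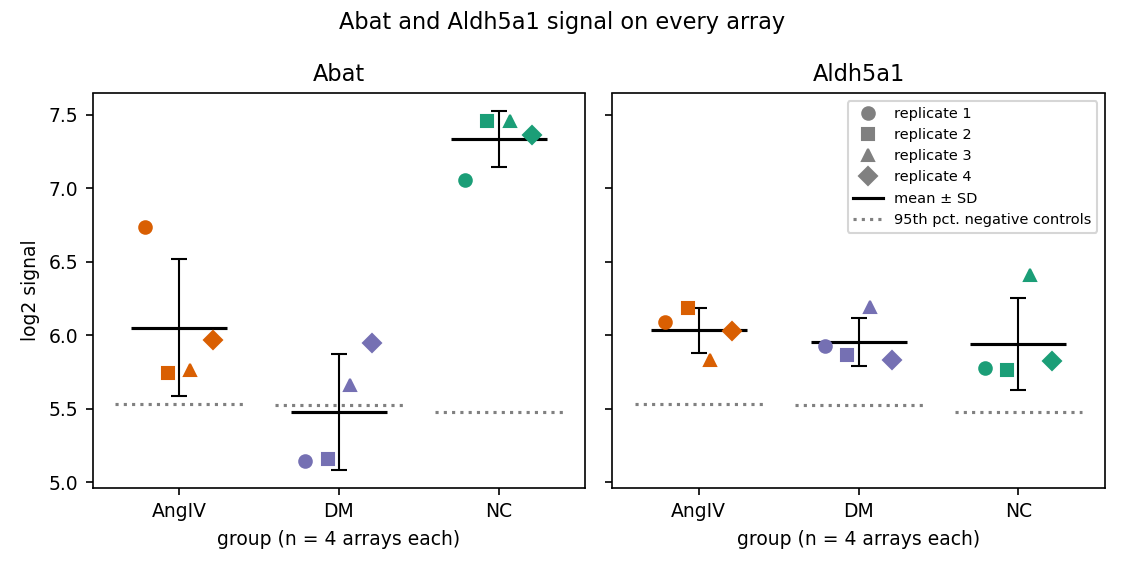
Log2 signal of Abat and Aldh5a1 on each array (points) in the AngIV, DM and NC groups, with the mean and SD of 4 arrays and the group's background (dotted lines). Abat lies between 5.15 and 6.73 on the diabetic arrays and between 7.06 and 7.46 on the NC arrays, while Aldh5a1 overlaps in all groups, with 1 high NC array at 6.41.

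The DM and NC means of Abat differed by -1.86 ± 0.22 SE on the log2 scale (95% interval -2.32 to -1.39). This is the difference by which the gene was chosen, so it was not tested. The highest DM array lay 1.11 below the lowest NC array. On DM replicates 1 and 2 the Abat signal was under that array's own background, and on replicates 3 and 4 it was above it, whereas it was above background on all 4 AngIV and all 4 NC arrays. The DM mean of 5.48 was below the group's background of 5.53, so no fold is given for it. As background to this comparison, 0 of the 13653 genes were called higher (0%) and 3 were called lower (0.022%) in DM at an adjusted p under 0.05. The groups did not overlap for 723 genes (5.3%), Abat among them. These counts were made over all tested genes with Abat included. In limma 1461 genes had an unadjusted p under 0.05.

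In AngIV hearts, Abat was lower than in NC hearts, by a log2 difference of -1.28 ± 0.22 SE (95% interval -1.75 to -0.82). The signal was 2.43-fold lower. On AngIV replicates 2, 3 and 4 Abat lay only 0.24, 0.28 and 0.41 above that array's background, and on replicate 1 it lay 1.15 above. Since RMA compresses differences near background, this fold is limited by it. The limma test gave a Benjamini-Hochberg adjusted p of 0.00925, and in all 16 pairs of an AngIV and an NC array the AngIV array was the lower. The highest AngIV array lay 0.325 below the lowest NC array. This comparison shares its NC arrays with the one by which Abat was chosen, so it is not independent of that choice. Its p-values, here and in the alternatives below, are therefore not those of an independent test. In the same comparison 208 genes were called higher (1.52%) and 85 lower (0.623%), and the groups did not overlap for 1742 genes (12.8%). The call was lost, at an adjusted p of 0.0581 with a difference of -1.21, without NC replicates 3 and 4, the NC arrays with the most liver signal. That fit has fewer NC arrays, and the part of the smaller group in the lost call was not tested.

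Between the diabetic groups, the AngIV mean of Abat was above the DM mean by 0.57 ± 0.22 SE (95% interval 0.11 to 1.04), which did not pass the test (limma, adjusted p = 0.505, unadjusted p = 0.0190). An exact two-sided permutation test of the 4 AngIV against the 4 DM arrays gave p = 0.114, where the smallest p that 4 against 4 allows is 0.0286. In 2 of the 16 pairs the AngIV array was the lower. Without AngIV replicate 1, the highest diabetic heart, the difference was 0.35 with an adjusted p of 0.650. No gene of the 13653 was called in this comparison, higher (0%) or lower (0%), and the groups did not overlap for 787 genes (5.76%). In limma 1199 genes had an unadjusted p under 0.05, and the smallest adjusted p was 0.177. The DM arrays of this comparison also took part in the choice of Abat.

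Aldh5a1, the next enzyme of the pathway, did not pass a test in any comparison. Its log2 signal was 6.09, 6.19, 5.83 and 6.03 on the AngIV arrays. It was 5.93, 5.87, 6.19 and 5.83 on the DM arrays. It was 5.77, 5.76, 6.41 and 5.82 on the NC arrays. All 12 values were above their array's background, and the groups overlapped throughout. NC replicate 3 had the highest value of the 12 arrays, and the other NC arrays had the lowest values. The means were 6.03 ± 0.15 in AngIV, 5.96 ± 0.16 in DM and 5.94 ± 0.31 in NC (log2 signal, SD, n = 4 each).

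The DM mean of Aldh5a1 differed from the NC mean by 0.01 ± 0.14 SE (95% interval -0.30 to 0.32, limma adjusted p = 0.989), and the exact permutation test gave p = 0.943. The sign of this difference turned when single arrays were left out, over a range of -0.07 to 0.17. AngIV differed from DM by 0.08 (95% interval -0.23 to 0.39, limma adjusted p = 0.902, exact permutation p = 0.571). AngIV differed from NC by 0.09 (95% interval -0.22 to 0.40, limma adjusted p = 0.790, exact permutation p = 0.600). Together the 3 intervals reach from -0.30 to 0.40, and none reaches the size of the Abat differences between diabetic and NC hearts. Without NC replicate 3, AngIV lay 0.25 and DM 0.17 above NC.

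**Figure D2:**
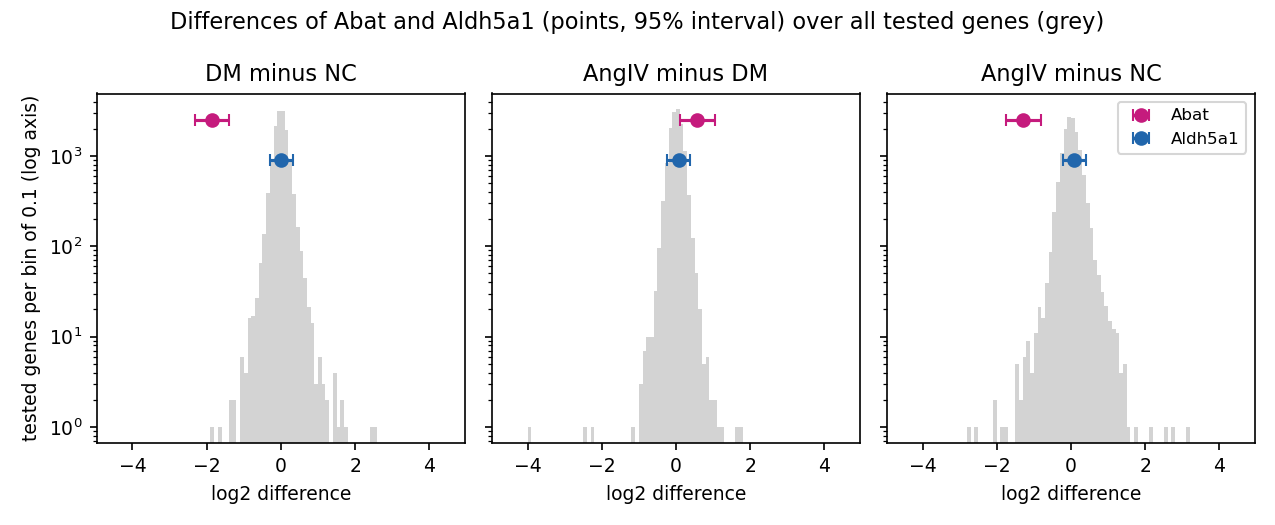
Differences of mean log2 signal for Abat and Aldh5a1 in each comparison, with the 95% interval of the fit to 12 arrays, drawn over grey histograms of the differences of all 13653 tested genes (counts on a log axis, the height of the points has no meaning). The Abat intervals for DM minus NC (-2.32 to -1.39, a description) and AngIV minus NC (-1.75 to -0.82) lie below 0, and every Aldh5a1 interval spans 0.

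Across the 12 arrays the signals of the 2 genes hardly moved together. Pearson's r was 0.01 and Spearman's rho -0.31, and with each group's mean removed r was 0.20. These values are a description over arrays that share their groups and carry no test.

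Within the DM group, Abat was lowest on the arrays that lay farthest toward the AngIV side of the principal component. Replicates 1 and 2, at 16.9 and 7.32 on the component, had Abat signals of 5.15 and 5.16. Replicates 3 and 4, at -4.17 and -11.4, had Abat signals of 5.66 and 5.95. The AngIV arrays, at 8.45 to 16.8, had Abat signals of 5.74 to 6.73, so Abat did not order all diabetic hearts along the component. The part of this array-wide pattern in the Abat difference was not tested.

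Atrial genes were unevenly present. The mean log2 signal of 8 atrial markers, among them Myl7 and Sln, was 5.23 to 5.51 on the AngIV arrays. It was 7.15, 7.56, 4.99 and 6.59 on the DM arrays, and 7.96, 5.61, 6.80 and 5.34 on the NC arrays. Of the 8 markers, 3 to 4 were above background on the AngIV arrays, 3 to 7 on the DM arrays and 4 to 7 on the NC arrays. On the arrays of low atrial signal, Abat was 5.74 to 6.73 on the 4 AngIV arrays, 5.66 on DM replicate 3, and 7.46 and 7.36 on NC replicates 2 and 4. With the atrial mean as a covariate, the Abat difference was -1.83 in DM against NC and -1.46 in AngIV against NC (adjusted p = 0.00746). In AngIV against DM it was 0.37 (adjusted p = 0.676), beside 0.57 in the fit without the covariate. The part of atrial tissue in the Abat difference was not tested.

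Liver genes were unevenly present as well, most of all among the NC hearts. GABA transaminase is also abundant in liver. The mean log2 signal of 5 hepatocyte markers, Alb, Ttr, Apoa1, Serpina1a and Cyp2e1, was 5.93, 4.60, 5.35 and 7.26 on the AngIV arrays. It was 5.58, 5.86, 6.31 and 5.84 on the DM arrays and 5.73, 4.00, 9.11 and 6.96 on the NC arrays. All 5 markers were above background on AngIV replicate 4 and on NC replicates 3 and 4, and none was on AngIV replicate 2 and NC replicate 2. Alb, which encodes serum albumin, had a log2 signal of 3.53 on NC replicate 2 and 11.0 on NC replicate 3. Abat read 7.46 on both of those arrays. Aldh5a1 read 5.76 and 6.41 on them, and its high NC array was the array with the most liver signal. On AngIV replicate 4 and NC replicate 4, where all 5 markers were also above background, Aldh5a1 read 6.03 and 5.82. These are single arrays, and the part of liver signal in the values of either gene was not tested.

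With the hepatocyte mean as a covariate, Abat differed by -1.83 in DM against NC, by 0.58 in AngIV against DM and by -1.25 in AngIV against NC (adjusted p = 0.0146). With NC replicates 3 and 4 left out, the DM minus NC difference of Abat was -1.78. For Aldh5a1 the same step gave 0.19 in DM against NC and 0.27 in AngIV against NC. These steps were chosen after the liver signal had been seen.

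**Figure D3:**
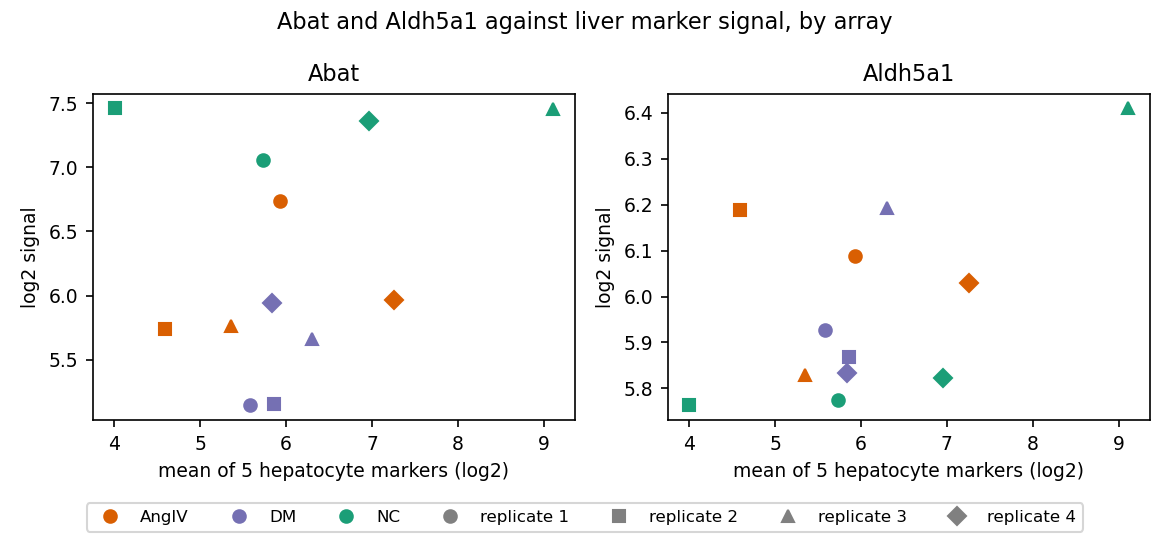
Log2 signal of Abat (left) and Aldh5a1 (right) against the mean log2 signal of 5 hepatocyte markers on each of the 12 arrays, coloured by group with a symbol per replicate number. Abat is 7.46 on the NC arrays with the lowest (4.00) and the highest (9.11) marker mean. The highest Aldh5a1 value, 6.41, is on the array with the highest marker mean.

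Markers of neurons, fat, epicardium and glia were mostly below background, while those of cardiomyocytes, macrophages, endothelium and fibroblasts were mostly above it. Of 10 neuron markers, 0 were above background on 11 arrays and 1 was on NC replicate 4. No adipocyte marker of 6 and no epicardial marker of 5 was above background on any array, and of 4 Schwann cell and glia markers 1 was, on NC replicate 1. The 7 macrophage markers each had a higher mean in AngIV and in DM than in NC, with median differences of 0.32 and 0.33. None of the 7 was called in either comparison (limma). An unadjusted p under 0.05 was found for 2 and 1 of them, beside 18.6% and 10.7% of all genes. The macrophage mean was 6.11 to 6.87 in AngIV, 6.03 to 7.19 in DM and 6.05 to 6.32 in NC, and its part in the Abat difference was not tested.

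Of 6 fibroblast markers, 5 to 6 were above background on every array, and their mean was 6.81 to 7.18 in AngIV, 7.04 to 7.29 in DM and 7.10 to 7.56 in NC. In AngIV against NC, 5 of the 6 were lower and 1 was called. That gene, named after its values were seen, was Col3a1, a fibrillar collagen, with 6.02 ± 0.41 in AngIV and 7.19 ± 0.33 in NC (difference -1.17 ± 0.20 SE, limma adjusted p = 0.00970). Col3a1 differed by -0.45 ± 0.20 in DM against NC (adjusted p = 0.439) and by -0.72 ± 0.20 in AngIV against DM (adjusted p = 0.372). Of 7 endothelial markers 5 to 7 were above background and of 6 smooth muscle and pericyte markers 2 to 5, and 0 of either list were called in any comparison (limma). The endothelial median difference was 0.09 in DM against NC and 0.02 in AngIV against NC. An unadjusted p under 0.05 was found for 1 and 2 endothelial genes, beside 10.7% and 18.6% of all genes. For smooth muscle and pericytes the median difference was -0.62 and -0.15, with 1 and 2 such genes. Their list mean ran from 6.22 to 6.70 in AngIV, from 5.70 to 6.34 in DM and from 5.75 to 7.55 in NC. The part of these cell types in the Abat difference was not tested. In whole tissue, fewer cells of a type and less RNA per cell cannot be told apart.

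Genes around GABA breakdown were read from 11 lists of 123 genes, of which 113 were named on the array and 89 were tested. Few of them passed a test. In DM against NC, 0 of the 89 were called (limma), with an unadjusted p under 0.05 for 7 higher and 9 lower genes. That is 18.0% of the list genes, beside 10.7% of all genes tested. In AngIV against DM, 0 were called, with an unadjusted p under 0.05 for 12 higher and 3 lower genes (16.9%, beside 8.78% of all genes). In AngIV against NC, 3 were called higher and 0 lower, which is 3.37% beside a background of 1.52% higher and 0.623% lower. With the adjustment left off, 11 were higher and 6 lower at p under 0.05 (19.1%, beside 18.6% of all genes). The median difference over the list genes was -0.00, 0.06 and 0.02 in the 3 comparisons, beside -0.00, 0.01 and 0.00 over all genes.

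**Figure D4:**
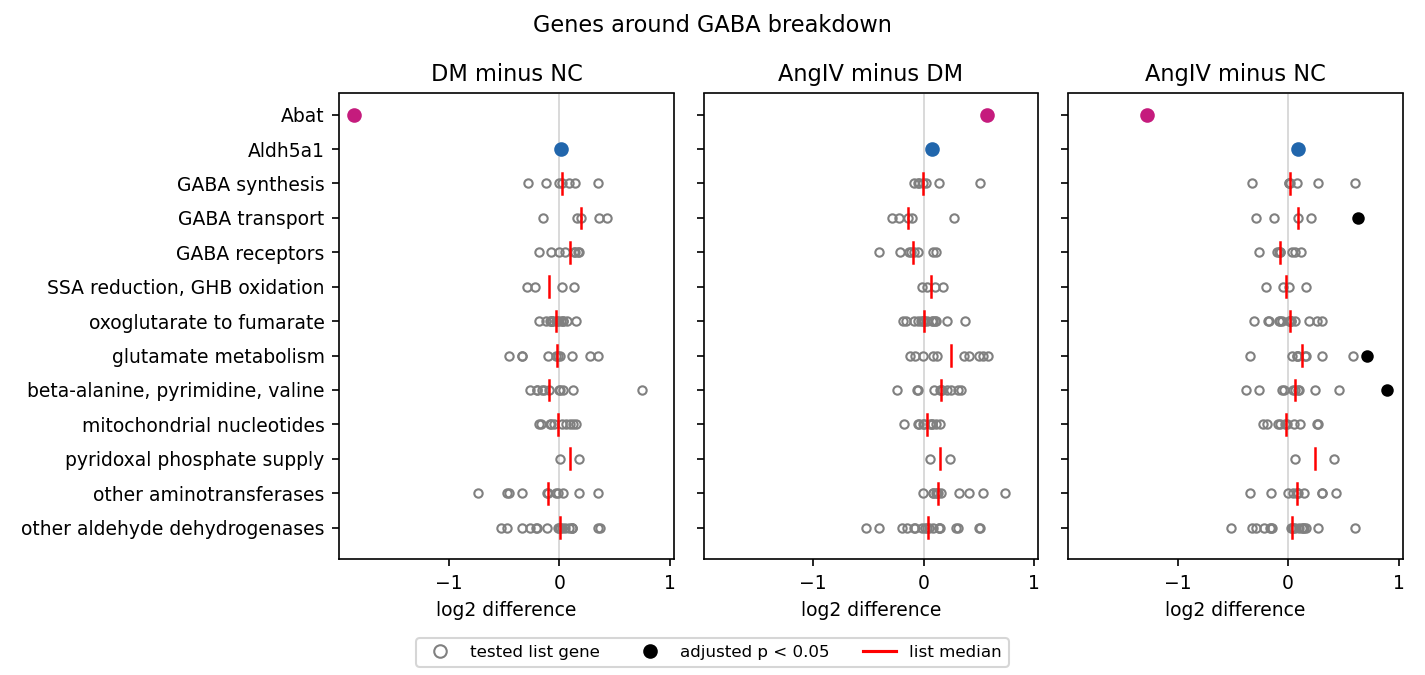
Log2 differences of every tested list gene (circles, filled where the adjusted p is under 0.05) and list medians (red lines) in DM minus NC, AngIV minus DM and AngIV minus NC, below those of Abat and Aldh5a1. Abat, chosen by its DM minus NC difference, lies outside the range of the list genes at -1.86 and -1.28 against NC. Both of these differences rest on the NC arrays of that choice. In AngIV minus NC, 3 filled genes stand to the right.

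The 3 genes called in AngIV against NC carry amino acids or handle pyrimidines. Slc6a6, the taurine transporter, which also carries beta-alanine, had a log2 signal of 7.71, 7.84, 7.73 and 7.63 in AngIV hearts, 7.60, 7.72, 7.46 and 7.03 in DM hearts, and 7.07, 7.21, 6.90 and 7.19 in NC hearts. The DM hearts overlapped both other groups. AngIV and NC did not overlap, and their difference was 0.64 ± 0.13 SE (adjusted p = 0.0249). The call was lost, at adjusted p-values of 0.0504 to 0.0713, without any 1 of NC replicates 1, 2 and 3 and AngIV replicates 2, 3 and 4.

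Slc1a5, a transporter of glutamine and other neutral amino acids, had a log2 signal of 6.24, 6.14, 6.31 and 5.94 in AngIV hearts, against 5.74, 5.33, 5.21 and 5.50 in NC hearts. The difference was 0.71 ± 0.13 SE (adjusted p = 0.0136), and the NC mean of 5.44 was below background, so no fold is given. DM hearts read 5.89, 5.88, 5.86 and 5.54 for Slc1a5. It differed by 0.35 ± 0.13 in DM against NC (limma adjusted p = 0.344) and by 0.36 ± 0.13 in AngIV against DM (adjusted p = 0.492). Upp1, uridine phosphorylase, which starts the breakdown of uridine, averaged 4.77 ± 0.15 in AngIV and 3.87 ± 0.38 in NC (SD, n = 4 each). Its difference was 0.90 ± 0.16 SE (adjusted p = 0.0136), between signals that both lay below background. The DM mean of Upp1 was 4.63 ± 0.19 (SD), also below background. Upp1 differed by 0.75 ± 0.16 SE in DM against NC (limma adjusted p = 0.104) and by 0.15 ± 0.16 in AngIV against DM (adjusted p = 0.811). Without NC replicates 3 and 4 all 3 calls were lost, at adjusted p-values of 0.0662 for Slc1a5, 0.0882 for Slc6a6 and 0.0765 for Upp1. The differences in that fit, which has fewer NC arrays, were 0.63 for Slc1a5, 0.59 for Slc6a6 and 0.61 for Upp1.

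For the making of GABA, 7 of 8 genes were tested and 0 were called in any comparison (limma). GABA is made from glutamate or, by another route, from putrescine. Odc1, ornithine decarboxylase, which makes putrescine, averaged 6.47 ± 0.19 in AngIV, 6.52 ± 0.18 in DM and 6.80 ± 0.20 in NC. Its difference was -0.33 ± 0.13 SE in AngIV against NC (adjusted p = 0.197) and -0.28 ± 0.13 in DM against NC (adjusted p = 0.462). Aldh9a1, which oxidises the aldehyde made from putrescine to GABA, averaged 6.06 ± 0.14 in DM and 5.71 ± 0.29 in NC (adjusted p = 0.378). Aldh1a1, a retinal dehydrogenase that can also form GABA, averaged 6.81 ± 0.22 in AngIV, 6.30 ± 0.61 in DM and 6.21 ± 0.55 in NC. Its difference in AngIV against NC was 0.60 ± 0.28 SE (adjusted p = 0.271).

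Most transporter and receptor genes of GABA gave signals below background, with Slc6a6 and Gabbr1 as the exceptions among those tested. Besides Slc6a6, 4 of the 7 transporter genes were tested, and none was called (limma). Slc32a1, which loads GABA into synaptic vesicles, averaged 4.44 in DM and 4.01 in NC, both below background (difference 0.43, adjusted p = 0.273). Slc6a13, a GABA transporter of liver and kidney, averaged 4.96 in AngIV and 5.25 in NC, also below background (difference -0.29, adjusted p = 0.206). Of 21 receptor subunit genes, 18 were named and 8 passed the filter on dim genes. None of these was called, and 1 had an unadjusted p under 0.05, in AngIV against DM, beside 8.78% of all genes. That gene was Gabrr1, a rho subunit, with 4.42 in AngIV and 4.83 in DM, both below background (adjusted p = 0.545). Gabbr1, a subunit of the metabotropic GABA-B receptor, was named after its values were seen, and averaged 6.64 ± 0.10 in AngIV, 6.73 ± 0.11 in DM and 6.73 ± 0.17 in NC. Its differences were -0.00 in DM against NC (adjusted p = 0.997), -0.08 in AngIV against DM (adjusted p = 0.838) and -0.09 in AngIV against NC (adjusted p = 0.719).

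Succinic semialdehyde, the product of GABA transaminase, can also be reduced to gamma-hydroxybutyrate, and 4 genes of that side branch were tested with 0 called (limma). Akr7a5, an aldo-keto reductase that carries out this reduction, averaged 7.02 ± 0.25 in AngIV, 6.84 ± 0.08 in DM and 7.06 ± 0.05 in NC. Adhfe1, the mitochondrial enzyme that turns gamma-hydroxybutyrate back, averaged 8.35 ± 0.04 in AngIV, 8.25 ± 0.17 in DM and 8.55 ± 0.18 in NC. Its difference of -0.30 ± 0.11 SE in DM against NC had an unadjusted p of 0.0176 and an adjusted p of 0.349.

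The steps of the citric acid cycle that the shunt bypasses and joins showed small differences. Of 15 genes from oxoglutarate dehydrogenase to succinate dehydrogenase, all were tested and 0 were called (limma). The list medians were -0.03 in DM against NC, 0.00 in AngIV against DM and 0.01 in AngIV against NC. Ogdhl, a relative of oxoglutarate dehydrogenase, averaged 7.21 ± 0.10 in AngIV, 6.84 ± 0.27 in DM and 6.91 ± 0.22 in NC, with a difference of 0.37 ± 0.14 SE in AngIV against DM (adjusted p = 0.504). Suclg1, a subunit of succinyl-CoA ligase, averaged 10.2 in AngIV and 9.93 in NC (difference 0.26 ± 0.10, adjusted p = 0.197). Sdhb, the iron-sulphur subunit of succinate dehydrogenase, averaged 10.6 in DM and 10.8 in NC (difference -0.18 ± 0.10, adjusted p = 0.538).

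Glutamate is the other product of GABA transaminase, and 10 of 17 genes of its metabolism were tested. Beside Slc1a5, none was called. In AngIV against DM, an unadjusted p under 0.05 was found for 5 higher and 0 lower genes, with 0 called. Over all 13653 genes it was found for 720 higher and 479 lower genes (8.78%). The list median was 0.24, beside 0.01 over all genes. Prodh, proline dehydrogenase, averaged 6.19 ± 0.30 in AngIV, 5.60 ± 0.30 in DM and 5.60 ± 0.17 in NC. Its difference was 0.59 ± 0.17 SE against DM (adjusted p = 0.372) and 0.59 ± 0.17 against NC (adjusted p = 0.0745). Oat, ornithine aminotransferase, averaged 8.81 ± 0.13 in AngIV and 8.40 ± 0.20 in DM (difference 0.41 ± 0.12, adjusted p = 0.372). Aldh4a1, which completes the oxidation of proline to glutamate, averaged 6.42 ± 0.18 in AngIV and 5.92 ± 0.25 in DM (difference 0.50 ± 0.15, adjusted p = 0.397).

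Among the genes of beta-alanine, pyrimidine and valine breakdown, which supply the other substrates of GABA transaminase, 11 of 14 were tested, and Upp1 was the only one called. Aldh6a1, methylmalonate semialdehyde dehydrogenase, which acts after the transaminase on the valine and thymine side, averaged 8.30 ± 0.05 in AngIV, 7.98 ± 0.20 in DM and 8.25 ± 0.13 in NC. Its differences were 0.31 ± 0.11 SE in AngIV against DM (adjusted p = 0.487) and -0.27 ± 0.11 in DM against NC (adjusted p = 0.391). Cndp2, a peptidase of small dipeptides, averaged 5.81 ± 0.15 in AngIV and 5.35 ± 0.24 in NC, where it was below background (difference 0.46 ± 0.12, adjusted p = 0.0555).

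No gene of mitochondrial nucleotide supply (10 tested of 11) or of pyridoxal phosphate supply (2 tested of 4) was called in any comparison (limma). Rrm2b, a ribonucleotide reductase subunit, averaged 6.43 ± 0.17 in AngIV and 6.16 ± 0.17 in NC (difference 0.27 ± 0.12, adjusted p = 0.228). Pdxk, the kinase that makes pyridoxal phosphate from vitamin B6, averaged 5.76 ± 0.22 in AngIV and 5.34 ± 0.30 in NC, below background (difference 0.42 ± 0.16, adjusted p = 0.187).

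Relatives of both enzymes were read in the same way, and 0 of 11 tested aminotransferases and 0 of 18 tested aldehyde dehydrogenases were called in any comparison (limma). At an unadjusted p under 0.05, 0 aminotransferases were higher and 3 lower in DM against NC, and 4 were higher and 0 lower in AngIV against DM. Over all 13653 genes, 767 were higher and 694 lower in DM against NC (10.7%), and 720 and 479 in AngIV against DM (8.78%). Got1, Got2, Gpt, Gpt2 and Oat are also on the glutamate list, so these lists are not independent of each other. Kyat3, a kynurenine aminotransferase, had a log2 signal of 6.46, 6.24, 6.30 and 6.65 in AngIV, 5.30, 5.47, 6.21 and 5.72 in DM, and 6.17, 6.36, 6.59 and 6.54 in NC. The AngIV and NC hearts overlapped, and 3 of the 4 DM hearts lay below all of them. The differences were -0.74 ± 0.17 SE in DM against NC (adjusted p = 0.128) and 0.73 ± 0.17 in AngIV against DM (adjusted p = 0.318). Bcat2, the mitochondrial branched-chain aminotransferase, averaged 6.81 ± 0.15 in DM and 7.28 ± 0.17 in NC (difference -0.47 ± 0.12, adjusted p = 0.143). Among the aldehyde dehydrogenases, Aldh1l2 and Aldh1a2 had the smallest p-values in DM against NC and AngIV against DM, at levels below background. Aldh1l2, a mitochondrial enzyme of folate metabolism, averaged 3.37 in DM and 3.89 in NC (difference -0.53, adjusted p = 0.241). Aldh1a2, a retinal dehydrogenase, averaged 3.38 in AngIV and 3.90 in DM (difference -0.52, adjusted p = 0.372).

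The genes whose signal over the 12 arrays was most like that of Abat were found by Pearson's r over the other 13652 genes. The highest were Cd320 (r = 0.97), Gsta4 (0.94), Nsfl1c (0.93), Hdlbp (0.93) and Cenpx (0.93). Cd320 is the receptor for vitamin B12 bound to transcobalamin, and Gsta4 is a glutathione transferase that clears the lipid peroxidation product 4-hydroxynonenal. Nsfl1c is a cofactor of the ATPase p97, Hdlbp an RNA-binding protein called vigilin, and Cenpx a small DNA-binding protein of centromeres and DNA repair. With each group's mean removed, r was 0.87 for Cd320, 0.65 for Gsta4, 0.76 for Nsfl1c, 0.69 for Hdlbp and 0.73 for Cenpx. These are the extremes of many correlations over arrays that share their groups, so they are a description only. Since Abat is high on the NC arrays, a gene chosen this way differs between NC and the diabetic groups by that choice, and no test is given for these genes.

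Cd320 had a log2 signal of 6.55, 6.40, 6.33 and 6.43 in AngIV, 6.32, 6.27, 6.36 and 6.49 in DM, and 6.72, 6.82, 6.71 and 6.76 in NC. As for Abat, all diabetic arrays lay below all NC arrays, and AngIV replicate 1 was the highest diabetic heart. Its differences were far smaller than those of Abat, at -0.40 in DM against NC and -0.33 in AngIV against NC.

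The lowest r with Abat belonged to Slc37a1 (-0.95), Tns2 (-0.94) and Acot1 (-0.94). Slc37a1 is a sugar phosphate carrier, Tns2 a tensin of focal adhesions and Acot1 a cytosolic acyl-CoA thioesterase of fatty acid metabolism. With group means removed, r was -0.84, -0.59 and -0.87. Acot1 had a log2 signal of 5.95, 7.54, 6.98 and 7.09 in AngIV, 8.12, 7.85, 7.35 and 6.77 in DM, and 5.90, 5.82, 6.23 and 5.68 in NC. Its lowest diabetic heart was AngIV replicate 1, the diabetic heart with the most Abat, and its highest was DM replicate 1, the heart with the least.

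Slc37a1 averaged 5.31 ± 0.12 in AngIV, 5.36 ± 0.12 in DM and 4.87 ± 0.12 in NC (SD, n = 4 each), all below background. Tns2 averaged 7.72 ± 0.07 in AngIV, 7.88 ± 0.18 in DM and 7.29 ± 0.06 in NC. The direction of both was set by the choice.

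**Figure D5:**
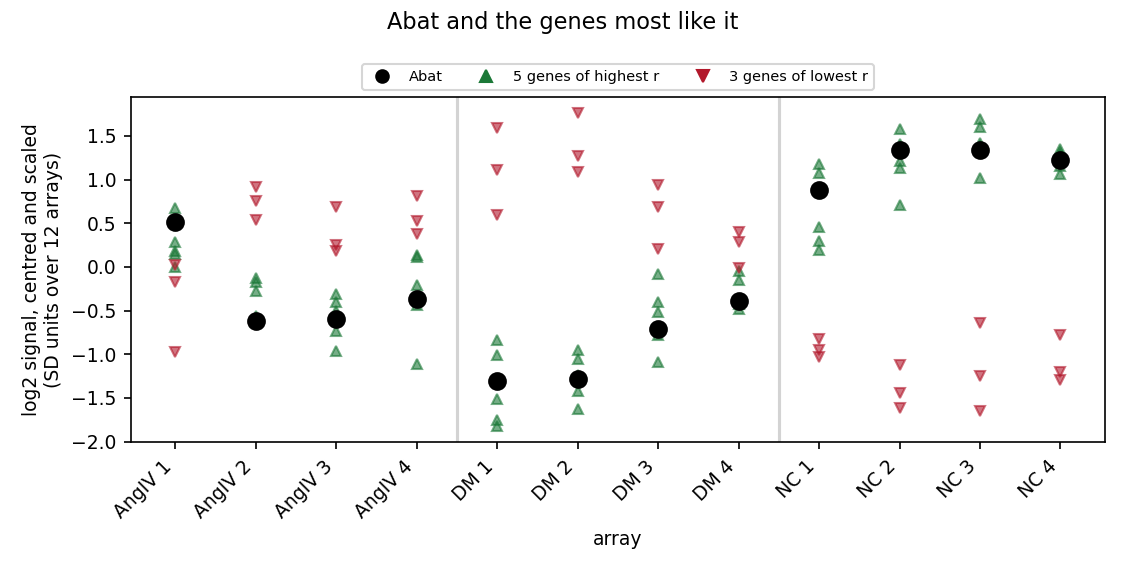
Log2 signal of Abat (black circles), the 5 genes of highest r with it (green, pointing up) and the 3 of lowest r (red, pointing down) on each array, centred and scaled per gene over 12 arrays. Abat is lowest on DM replicates 1 and 2, and on every NC array it and the 5 genes of highest r lie above their mean and the 3 genes of lowest r below it.

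For Aldh5a1 the genes of highest r were Ago3 (0.89), Hspb2 (0.87) and Itih2 (0.85), and those of lowest r were Efna4 (-0.89), Ggn (-0.88) and Krtap1-4 (-0.87). Ago3 is an Argonaute protein of microRNA silencing, Hspb2 a small heat shock protein of muscle, and Itih2 a serum protein made mainly in liver. NC replicate 3 and DM replicate 3, the arrays of highest Aldh5a1 (6.41 and 6.19), stood out in several of them. Of these genes of highest and lowest r, all but Hspb2 had means below background in every group. Ago3 read 5.68 on DM replicate 3 and 5.70 on NC replicate 3, and at most 5.51 on the other arrays. Itih2 read 4.79 and 5.10 on those arrays, and Ggn, a gene named for its expression in germ cells, read 4.66 and 4.70, its lowest values. With the 2 arrays farthest from the median left out, r was 0.77 for Ago3, 0.80 for Hspb2, 0.57 for Itih2 and -0.78 for Ggn.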

How the data were processed

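Expression was measured on single-colour Affymetrix arrays of mouse myocardium from 12 mice, 4 per group. Log2 signals were deposited by the authors in 1 table, after RMA (background correction, quantile normalization and a summary over probes) per the submitters' processing notes. The values' range showed the log2 scale. For the RMA version and the build, the entry is not given in the sources used here, so no coordinates are printed. After quantile normalization a change in total RNA per sample is not visible, and RMA compresses differences near background.

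Of 29129 probe sets, 6923 controls were not tested. Among the other 22206, 19572 had 1 gene symbol, 0 of which changed on matching by Entrez ID to RefSeq, and 2634 had none. For the 55 genes with several probe sets the one of highest mean was kept. The dimmest 30% of genes (mean under 3.40) were left out. Differences were fitted over all 12 arrays with limma 3.58.1 (lmFit, eBayes) in R 4.3.3 and adjusted by Benjamini-Hochberg over 13653 genes, with calls at an adjusted p under 0.05. The fit was tested on simulated data. The 3 comparisons share arrays. A mean is called below background when it lies under the 95th percentile of 5222 negative control probe sets in its group, and then no fold is given. The number of arrays limits the precision, with a median standard error of 0.127.

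The genes and lists were chosen with earlier results of these data known. The text names both genes, the 5 and 3 genes of highest and lowest r with Abat (3 and 3 for Aldh5a1), every list gene called, and list genes among the 2 smallest p-values of a list and comparison. Alternatives were other priors, filters, samples and covariates, array weights, median centring and leaving out each array.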

Additional observations from a re-analysis of the deposited data

Results flagged for a closer look

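Within each group of 4 arrays, the value farthest from the rest was set against Dixon's 95% critical value for 55 genes named above or in the same lists, which gave 165 groups. It was passed in 11 of them (6.67%), where chance gives about 1 in 20, so the values below are given without weighing.

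Aldh5a1 was high on NC replicate 3, at 6.41 against 5.76 to 5.82 on the other NC arrays. Ago3, the gene of highest r with Aldh5a1, was high on the same array at 5.70.

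Among the diabetic hearts, Slc1a5 was low on DM replicate 4 at 5.54, Upp1 was low on DM replicate 1 at 4.34, and Akr7a5 was high on DM replicate 4 at 6.96. Slc37a1 was low on AngIV replicate 1 at 5.13, the AngIV heart with the most Abat, and Sdhaf4, an assembly factor of succinate dehydrogenase, was high on it at 3.82. Slc32a1 and Phykpl, a phosphohydroxylysine lyase related to aminotransferases, were high on AngIV replicate 4 at 4.30 and 4.78.

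Among the control hearts, Slc6a11, a GABA transporter of glia, was low on NC replicate 4 at 3.56, and Cndp2 was low on NC replicate 1 at 5.00. Of the flagged genes, Akr7a5 and Aldh5a1 were above background in all groups. The means of Slc32a1, Slc6a11, Sdhaf4, Upp1, Phykpl, Slc37a1 and Ago3 were below it in all 3 groups.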

How the results depend on the processing

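The Abat difference kept its sign in all alternatives run. Against NC, leaving out arrays could not turn the sign, since every diabetic array lay below every NC array. Other priors and filters leave the difference itself as it is. Leaving out 1 array at a time gave -2.01 to -1.74 in DM against NC, 0.35 to 0.73 in AngIV against DM (adjusted p 0.448 to 0.716) and -1.51 to -1.18 in AngIV against NC (adjusted p 0.00349 to 0.0355). The AngIV minus NC call was lost only without both NC arrays of most liver signal (-1.21, adjusted p = 0.0581). That alternative has fewer NC arrays and was chosen after seeing the data. Aldh5a1 passed no test under any alternative. Its DM minus NC difference reversed without NC replicates 1 (-0.0431), 2 (-0.0469) and 4 (-0.0273) and without DM replicate 3 (-0.0661), in a leave-one-out range of -0.07 to 0.17. The cause was not tested.

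Counts of called genes moved more. In DM against NC, 3 genes became 29 with a trend in the prior, 20 with the dimmest 50% left out, 5 with only those groups, 5 with the atrial covariate and 1 without the NC arrays of most liver signal, with a leave-one-out range of 3 to 30. In AngIV against NC, 293 became 576 with the trend, 492 with the dimmest 50% left out, 466 with only those groups and 119 without those NC arrays, with a leave-one-out range of 104 to 469. In AngIV against DM the leave-one-out range was 0 to 5. List genes called in AngIV against NC numbered 5 with the trend, 5 with the atrial covariate and 0 without those NC arrays, with a leave-one-out range of 2 to 4, and in DM against NC the range was 0 to 1.

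Same-numbered arrays did not deviate together, with 2 of 12 pair correlations over 0.1 in a range of -0.115 to 0.208, so the numbers were not taken as pairs. With the replicate block, Abat in AngIV against NC stayed at -1.28 (adjusted p = 0.0253). A fit with other probe sets of Abat and Aldh5a1 was not run, since each has 1 probe set. Signal near background limits Abat in DM hearts, where 2 of 4 arrays were above it. It also limits Abat in AngIV hearts, where replicates 2, 3 and 4 lay 0.24 to 0.41 above it.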
